A study of Mus musculus with 30 samples.

Results

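Livers of D2 mice were compared with livers of B6 mice on one and the same balanced diet, which held 200 mg of iron per kg. The comparison rests on every array titled DBA/2 iron-balanced (5 mice) and every array titled C57BL/6 iron-balanced (5 mice), 10 of the 30 arrays of the series, each with liver RNA of 1 mouse. DBA/2 (D2) and C57BL/6 (B6) are inbred strains, and the labels name no transgene, deletion or drug in either group. The mice carried separate animal codes, so replicates are separate animals. The other groups, again with 5 mice of each strain, received an iron-enriched diet (8.3 g per kg) or an iron-deficient diet (less than 3 mg per kg). They show whether a strain difference was found again in other mice. They also share in the fit's estimate of each gene's spread, and so enter each adjusted p of the balanced comparison. The sources used here give no substrain, sex, age, length of feeding or hour of sampling.

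All mice of an inbred strain share 1 genome. A comparison of strains at a fixed diet thus reads standing differences in probe signal, on which any diet effect is laid. Strain variants in the sequence under a probe can change its signal, and their part was not tested. Liver iron is sensed through bone morphogenetic protein (BMP) signalling: sinusoidal endothelial cells secrete Bmp6, hepatocytes answer by activating SMAD proteins, and SMADs drive hepcidin, the hormone that blocks release of iron into blood, together with targets such as Id1, Smad7 and Atoh8. The liver also makes most plasma proteins, clears foreign compounds, makes bile acids and cholesterol, and runs a strong daily clock, and each of these functions is described below by its genes.

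The share of probes well above background ran from 62.53% to 78.46% over the 10 arrays, 69.94% ± 5.91 (SD, n = 5) in B6 and 67.53% ± 1.41 in D2 livers. Precision is limited by the number of arrays. Over all genes the correlation of levels was 0.972 to 0.993 between mice of 1 strain and 0.955 to 0.976 between strains, and the first principal component, with 46.4% of the variance, put the 5 B6 mice between -46.2 and -36.4 and the 5 D2 mice between 40.7 and 43.5. The arrays were scanned on 3 days: 1, 1 and 3 of the B6 arrays and 1, 3 and 1 of the D2 arrays fell on days 1, 2 and 3. One array stood apart in cell markers. B6 mouse 1, the only balanced B6 array of scan day 2, had a summed adipocyte marker signal of 2128, against 58.4 to 89.9 in the other B6 and 47.9 to 399.5 in the D2 mice, and the highest summed Kupffer cell marker signal, 122154. All 4 probes of the Y-linked Eif2s3y, Kdm5d and Ddx3y were well above background on 10 of 10 arrays, and 3 of 4 probes of Xist, expressed from the inactive X chromosome, on none. The other Xist probe was above it on 3 arrays, at levels up to 4.77.

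Strain differences ran through much of the liver transcriptome. Of 18987 genes tested, 6258 (33.0%) passed at an adjusted p under 0.05 in limma's moderated test with Benjamini-Hochberg adjustment, which gives every adjusted p below. They were 3555 genes higher in D2 (18.7% of those tested) and 2703 lower in D2 (14.2%), and the median difference of all genes was 0.01. Each count of list members below is to be set against these shares of all genes. Levels are log2 of the normalized signal and differences are D2 minus B6, so that 1 is 2-fold. Most differences were modest, with a median size of 0.56 among the genes that passed. Of these, 1292 (6.80% of genes tested) differed at least 2-fold, 772 higher and 520 lower, 62 were at least 8-fold higher and 45 at least 8-fold lower. The 5 D2 and 5 B6 levels did not overlap for 3946 genes (20.8%), and 3846 of these passed. In a fit to the balanced arrays alone, without the spread of the other groups, 4683 genes passed, 2678 higher and 2005 lower. Within scan day 2 (1 B6 array, which is mouse 1, against 3 D2) 2548 genes passed, within day 3 (3 B6 against 1 D2) 4189, and within day 1 (1 against 1) 0, with 4561 at an unadjusted p under 0.05. At least one strain has a single array on each day, and limma takes the spread from the groups with more than 1 array that day, which on day 1 is the pair of D2 arrays on enriched iron. A single array is thus assumed to vary like those groups.

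Some of the largest differences had one strain at background. Ifi202b, an interferon-inducible member of the HIN-200 family of DNA sensors, is known not to be expressed in B6 mice. Its B6 levels were 3.80, 3.80, 3.80, 3.80 and 3.80, which is the floor of 3.80 set for dim signals, and its D2 levels 11.61, 11.93, 12.21, 11.66 and 11.21. All D2 mice thus lay far above all B6 mice, of which 1 of 5 was marked above background (adjusted p = 1.19e-25). The size of this difference, 7.92, is measured from the floor and set by it. H2-Ea, a class II histocompatibility chain whose gene is known to be inactivated in the haplotype of B6, gave 3.80, 3.80, 3.80, 3.80 and 3.80 in B6, where 0 of 5 arrays were above background, and 8.36, 7.41, 8.05, 7.54 and 7.69 in D2 livers. That is at least 12.7-fold higher in D2, a bound set by the lowest signal told from background on each array (measured means 3.80 and 7.81, adjusted p = 2.35e-15).

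Thumpd1, a helper of tRNA acetylation, was the reverse case. Its probe gave 11.56, 11.54, 11.38, 11.52 and 11.50 in B6 and 3.80 in all 5 D2 mice, at least 156-fold lower in D2 (adjusted p = 3.63e-35). Only 1 other probe of the gene is on the array, and it was above background in 1 of 5 B6 and 0 of 5 D2 mice, with a difference of 0.23, so the result rests on 1 probe. Trim12a, a member of the tripartite motif family, gave 10.73, 10.59, 10.52, 9.82 and 10.33 in B6 and 3.80 in every D2 mouse, with 0 of 5 D2 arrays above background (adjusted p = 4.08e-26, at least 72.4-fold lower at this probe). Its second kept probe was above background on 5 of 5 arrays in both strains and gave -3.42. In all, 70 genes passed with 5 of 5 arrays above background in one strain and 0 of 5 in the other at the probe used. Of these, 21 were above background in D2 and 49 in B6. The part of strain variants under the probes in these differences was not tested.

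**Figure D1:**
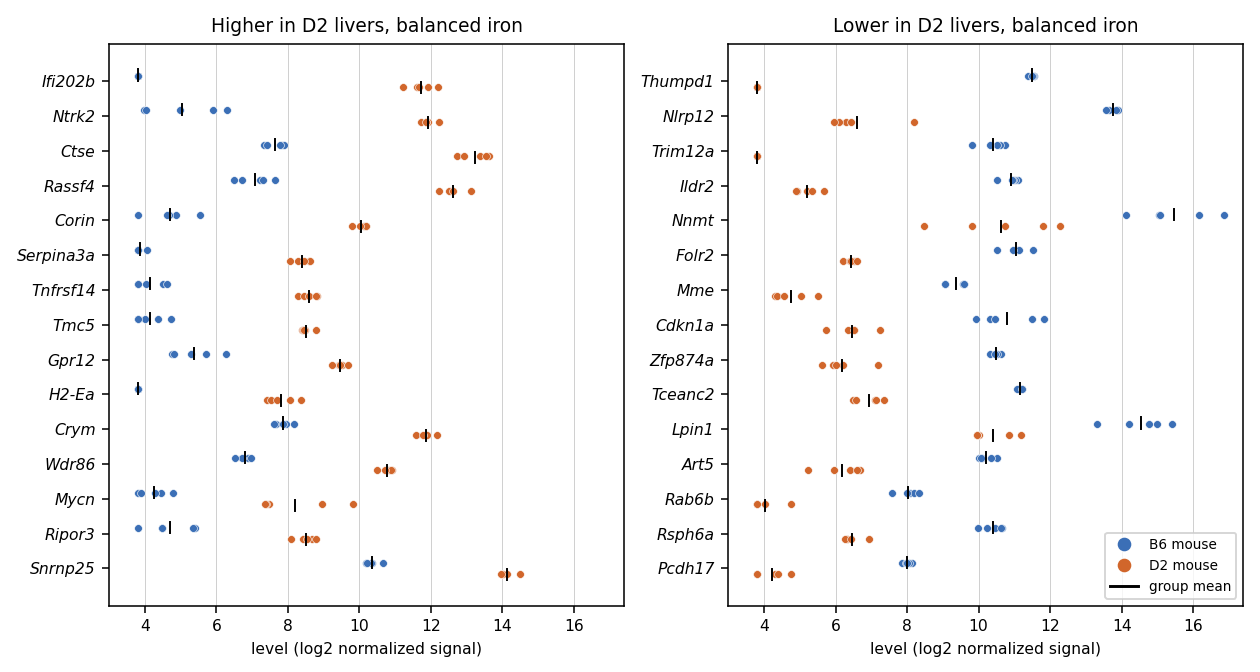
Level of the 15 genes with the largest rise and the 15 with the largest fall in D2 against B6 livers on balanced iron, with 1 point per mouse and a bar at each mean; the x axis is log2 normalized signal. In each of the 30 genes the 5 D2 and the 5 B6 points do not overlap, as the rule for choosing them required.

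Other genes had signal in both strains, at times on few B6 arrays, and differed more than 10-fold. Ntrk2, the receptor of brain-derived neurotrophic factor, had B6 levels of 5.91, 3.98, 4.98, 6.30 and 4.03 and D2 levels of 11.91, 11.86, 11.71, 11.87 and 12.23 (log2 difference 6.88, SE 0.38, adjusted p = 5.67e-14), and its second kept probe gave 6.38. B6 mice spread widely near background (4 of 5 arrays above it) while D2 mice lay close together. Rassf4, a Ras-association domain protein, differed by 5.53 (SE 0.18), and its 5 other kept probes gave 1.35 to 5.30. Ctse, the aspartic protease cathepsin E, had levels of 7.64 ± 0.26 (SD, n = 5) in B6 and 13.24 ± 0.40 in D2 livers (adjusted p = 3.19e-21). Corin, the protease that activates atrial natriuretic peptide, differed by 5.35, Serpina3a, a serine protease inhibitor, by 4.54, and Tnfrsf14, the herpesvirus entry mediator, by 4.43. B6 arrays above background numbered 4, 1 and 3 of 5 for these genes, and 4 of 5 B6 levels of Serpina3a lay at the floor, which sets the size of its difference. The other large rises were Tmc5 (4.37, 2 of 5 B6 arrays above background), the orphan receptor Gpr12 (4.09), the thyroid hormone-binding Crym (4.01), Wdr86 (3.98), the transcription factor Mycn (3.96, 1 of 5 B6 arrays), Ripor3 (3.80) and Snrnp25 (3.78), a protein of the minor spliceosome. Second probes gave 5 for Gpr12, 3.83 for Snrnp25, 3.52 for Tnfrsf14, 1.18 for Mycn and 0.13 for Ripor3, so the size of the last 2 rests on 1 probe.

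Among genes lower in D2, Nnmt, the methyltransferase that uses nicotinamide, varied widely between mice. Its levels came to 16.16, 14.12, 15.05, 16.86 and 15.08 in B6 and 11.79, 10.73, 8.48, 12.29 and 9.81 in D2 livers (log2 difference -4.83, SE 0.57, adjusted p = 1.65e-07). The groups did not overlap although each spread over more than 2 log2 units. Lpin1, a phosphatidate phosphatase that also acts as a transcriptional coactivator, had levels of 14.77, 14.20, 13.30, 15.41 and 15 in B6 and 10, 9.96, 9.95, 10.86 and 11.18 in D2 (log2 difference -4.14, SE 0.40, adjusted p = 5.09e-09), and its 3 other kept probes gave -5.45 to -4.48. Cdkn1a, the inhibitor of cyclin-dependent kinases that is induced by p53, had 11.49, 9.92, 10.33, 10.45 and 11.82 in B6 and 5.74, 6.52, 6.35, 6.52 and 7.24 in D2 (log2 difference -4.33, SE 0.38, adjusted p = 5.52e-10). Nlrp12, a NOD-like receptor, differed by -7.17, with -2.14 at its second probe. Ildr2 (-5.70), the endopeptidase Mme (-4.62, second probe -3.44), Zfp874a (-4.30), Tceanc2 (-4.22, other probes -3.85 and -3.36) and the ADP-ribosyltransferase Art5 (-4.03) were also at least 16-fold lower. Rab6b (-3.99, 1 of 5 D2 arrays above background), the radial spoke gene Rsph6a (-3.94) and the protocadherin Pcdh17 (-3.80) followed, with other probes at -1.24 for Rab6b, 0.03 for Rsph6a and -2.44 to 0.43 for Pcdh17. Folr2, a folate receptor of liver macrophages, was lower in D2 (difference -4.62), with levels of 11.05 ± 0.36 and 6.43 ± 0.14 (SD, n = 5). The summed Kupffer cell markers moved with it (58078 to 122154 in B6 and 37903 to 45582 in D2 livers), and their part in it was not tested. In bulk tissue, fewer cells of a type and less RNA per cell cannot be told apart.

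Genes next to these were read from the RefSeq gene order. Of 39 tested neighbours 1 place away 17 (43.6%) passed, and of 117 up to 3 places away 57 (48.7%), against 33.0% over all genes. Ifi202b lies between Ifi203 and Ifi205, further members of its family, which were lower in D2, with differences of -3.36 and -3.08 (adjusted p = 6.78e-15 and 4.91e-15). The 2 other kept probes of Ifi203 gave 0.00 and 1.28 and the other probe of Ifi205 gave -2.56. Beside Ctse, the small GTPase gene Rab7b was lower (-2.92) and Pm20d1, 3 places away, higher (1.29). Tmc7, the neighbour of Tmc5, was lower (-2.88, other probes -0.65 to 0.44), and Crygn, the neighbour of Wdr86, was lower (-3.15, 2 of 5 D2 arrays above background). On the other hand Prxl2b (2.23) and Plch2 (1.70) near Tnfrsf14, Rhbdf1 (1.61) and Mpg (1.45) after Snrnp25, Serpina5 (1.83) beside Serpina3a and Zfp874b (-1.45) beside Zfp874a had the sign of the gene they flank. Around Trim12a, Trim34a was lower (-1.08, other probes 0.26 to 0.64) and Trim6 higher (2.02, other probes 0.31 to 2.37). The neighbours named here all passed and were chosen after their values were seen. Probes of near-identical family members can share signal, which was not measured here.

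The title genes of the series differed little at balanced iron. In B6 livers Bmp6 stood at 9.35, 9.57, 9.41, 9.46 and 9.43, and in D2 livers at 9.17, 8.91, 8.82, 9.11 and 8.96. All D2 mice lay below all B6 mice, and the difference passed (log2 difference -0.45, SE 0.083, adjusted p = 9.68e-05; second probe -0.55). Smad7, an inhibitory SMAD, had levels of 9.002, 9.95, 9.75, 10.04 and 9.78 in B6 and 9.70, 9.65, 9.24, 9.98 and 10.13 in D2, which overlap (log2 difference 0.03, SE 0.22, adjusted p = 0.931). Id1, an inhibitor of differentiation, gave -0.62 (SE 0.31, adjusted p = 0.135) and the transcription factor Atoh8 -0.31 (SE 0.20, adjusted p = 0.262), and neither passed. The study chose these 4 genes on these samples, so 1 of 4 lower in D2 is no independent evidence of a direction.

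The hepcidin genes parted. Hamp encodes hepcidin, and its levels came to 15.91, 15.23, 15.94, 16.82 and 15.95 in B6 and 16.02, 14.80, 13.02, 16.42 and 15.97 in D2 livers (log2 difference -0.72, SE 0.85, adjusted p = 0.576). The groups overlapped, and D2 mouse 3 was the lowest of the 10 mice. Hamp2, a paralog with near-identical sequence, had 12.94, 13.24, 13.31, 13.38 and 14.29 in B6 and 17.15, 16.07, 15.02, 16.87 and 16.39 in D2, and every D2 mouse lay above every B6 mouse (log2 difference 2.87, SE 0.43, adjusted p = 7.34e-06, 7.29-fold). Each gene had 1 kept probe, and how much signal the paralogs share was not measured, which makes each one's own level uncertain. On enriched iron the Hamp2 difference was 1.71 (adjusted p = 0.00243) and on deficient iron 0.58 (adjusted p = 0.351). The difference between diets did not pass.

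Of 30 other genes of BMP signalling 7 were higher, 2 lower and 21 did not pass (median 0.11, against 0.01 for all genes and 33.0% passing). Among ligands, Bmp7 was higher by 1.14 (second probe 1.42), Bmp4 by 0.76 and Gdf2, the endothelial ligand BMP9, by 0.45. Hfe, the hemochromatosis protein that signals iron status on the hepatocyte surface, had levels of 12.83, 12.49, 12.51, 12.63 and 12.49 in B6 and 11.94, 11.93, 11.78, 11.92 and 11.76 in D2. The groups did not overlap (log2 difference -0.72, SE 0.074, adjusted p = 1.31e-08; second probe -1.85). Tmprss6, the protease that restrains hepcidin, differed by 0.27 (adjusted p = 0.0497). Of these 30 genes 4 were higher without B6 mouse 5 or with slide as a block, and 1 was lower without D2 mouse 3. Id3, a BMP target, was lower (-1.02, adjusted p = 0.012), while the ubiquitin ligase Smurf1 (0.66, second probe -0.24) and the decoy receptor Bambi (0.49) were higher.

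Of 24 genes of iron transport and storage 6 were higher and 4 lower (median 0.09), 41.7% against 33.0% over all genes. In a fit to the balanced arrays alone 3 were higher. Cybrd1, a ferric reductase, had levels of 3.80, 4.35, 4.13, 3.80 and 3.80 in B6, with 1 of 5 arrays above background, and 5.88, 5.26, 4.96, 5.63 and 4.99 in D2 (log2 difference 1.37, SE 0.17, adjusted p = 2.95e-07). The groups did not overlap, but the whole range is dim. On enriched iron its difference was 0.34, and the difference between those diets passed (adjusted p = 0.0269). The transferrin receptor gene Tfrc, which cells use to take up iron, had 9.61, 10.28, 9.74, 9.29 and 9.37 in B6 and 9.05, 9.19, 9.33, 8.88 and 8.44 in D2 (log2 difference -0.68, SE 0.18, adjusted p = 0.00466). The groups overlapped. Its difference was -0.29 and -0.05 on the other diets, which did not pass. The metalloreductase genes were split, with Steap3 (0.70, second probe 0.11) and Steap4 (0.63, adjusted p = 0.0391) higher and Steap2 (-0.92) lower. The exporter ferroportin (Slc40a1, 0.38) and the ferritin light chain Ftl1 (0.36) were slightly higher, and Ncoa4, which takes ferritin to lysosomes (-0.46), and the iron chaperone Pcbp2 (-0.35, other probes -0.18 and 0.45) slightly lower.

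Heme genes differed at single steps. Alad, the second enzyme of heme synthesis, lies in a segment known to be duplicated in D2. Its levels came to 13.59, 13.77, 13.67, 13.82 and 13.48 in B6 and 15.33, 15.25, 15.38, 15.30 and 15.37 in D2 (log2 difference 1.66, SE 0.08, adjusted p = 2.36e-15, 3.15-fold), with differences of 1.68 and 1.47 on enriched and deficient iron. It was the only one of 8 heme synthesis genes to pass at this scaling (12.5%, against 33.0% over all genes), while 3 were higher with 75th percentile scaling or without normalization between arrays, and 2 with cyclic loess, with scan day as a block or without B6 mouse 2. The rate-limiting Alas1 differed by 0.05 (adjusted p = 0.909). Of 11 genes of heme breakdown and scavenging (45.5% passing, against 33.0% over all genes) 1 was higher, biliverdin reductase Blvra (0.42), and 4 lower. These were Ugt1a1, which conjugates bilirubin (-1.04), heme oxygenase Hmox1 (-0.78), the heme transporter Slc48a1 (-0.60, second probe 0.07) and the macrophage scavenger receptor Cd163 (-0.51). Cd163 is also one of the Kupffer cell markers, all of which were lower in D2 livers.

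Genes that carry known B6 or D2 variants passed in 12 of 17 cases, 9 higher and 3 lower, against 33.0% over all genes. The list was drawn up because its genes are known to differ, so the count is a description. Nnt, the mitochondrial transhydrogenase with a known deletion in the J substrain of B6, had 11.96, 12.35, 12.28, 11.80 and 12.05 in B6 and 13.85, 13.81, 13.93, 13.73 and 13.66 in D2 (log2 difference 1.71, SE 0.082, adjusted p = 2.33e-15). B6 livers were above background on all arrays, and the 3 other kept probes gave -0.21 to 1.58. Hc, complement factor 5, is known to be truncated in D2, and its levels came to 16.69, 16.56, 16.74, 16.78 and 16.66 in B6 and 15.13, 15.39, 15.12, 15.20 and 14.97 in D2 (log2 difference -1.53, SE 0.072, adjusted p = 1.37e-15). The glyoxalase Glo1 differed by 1.10 (second probe 1.01).

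Of 28 histocompatibility (H2) and antigen-processing genes 8 were higher and 4 lower (median 0.03), 42.9% against 33.0% over all genes. Besides H2-Ea, the immunoproteasome subunit Psmb9 (1.64) and the peptide transporter Tap1 (1.33) were higher. H2-T24 was higher (0.91) and H2-Q1 lower (-1.07, other probes -6.51 to -0.03). For H2-Bl the probe used gave -1.41 and the other kept probes 0.73 and 1.51, and its mean over probes turned the sign (0.28). D2 and B6 carry different H2 haplotypes and these genes have near-identical copies, so single H2 values are uncertain. Within scan day 2 the split was 3 higher and 12 lower, and 7 were lower without B6 mouse 4 or with scan day as a block.

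The interferon response stood higher in D2 livers. Of 36 genes 23 were higher, 3 lower and 10 did not pass, 72.2% passing against 33.0% over all genes. The median was 0.65, against 0.01 for all genes. Ifit1, which binds viral RNA, had levels of 10.11, 10.16, 9.72, 9.11 and 10.17 in B6 and 11.78, 11.83, 12.50, 11.54 and 11.16 in D2 livers (log2 difference 1.91, SE 0.28, adjusted p = 4.27e-06). No D2 mouse overlapped with a B6 mouse. The antiviral GTPases Mx2 (1.92), Gbp6 (1.99) and Igtp (1.75), the ubiquitin-like Isg15 (1.73), the nucleic acid sensor Zbp1 (1.67) and Mx1 (1.42) moved with it, as did the transcription factors Irf9 (0.86) and Irf7 (0.64) by less. The 3 lower genes were Ifi203 (other probes 0.00 and 1.28), Ifi205 and Ifi204, all of the Ifi200 gene cluster. Within scan days 2 and 3 there were 11 and 14 higher and 3 and 3 lower (medians 0.56 and 0.66). On enriched iron 29 were higher and 3 lower and on deficient iron 25 and 4, and in limma the strain difference passed the test between diets for 0 of 36 members.

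Interferon acts on many of these genes through a promoter element, the ISRE. The letters GAAANNGAAA were searched on both strands in RefSeq promoters of GRCm38.p6, from 250 bases before to 50 after each start, which hold the sequence of B6 and not of D2. Of 24 list members with a promoter there, 17 had a match, against 3.89% of 12087 tested genes with one. Of the 13 such genes higher in D2 7 had a match, and so did both lower ones with a promoter, Ifi203 and Ifi205. The other matches were in members that did not pass, which were Oas1a, Oas3, Stat2, Ddx58, Ifih1, Trim30a, Gbp3 and Bst2. The windows below are shown for genes that moved in either direction, 5' to 3' along the gene, with the matches in capitals.
Isg15 (chr4:156200850-156200921, minus strand): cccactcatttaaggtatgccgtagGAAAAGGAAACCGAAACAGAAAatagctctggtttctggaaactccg
Ifit1 (chr19:34640760-34640838, plus strand): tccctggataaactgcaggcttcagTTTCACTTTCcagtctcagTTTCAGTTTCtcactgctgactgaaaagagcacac
Igtp (chr11:58199497-58199556, plus strand): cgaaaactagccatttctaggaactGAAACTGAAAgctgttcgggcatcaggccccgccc
Gbp2 (chr3:142620579-142620638, plus strand): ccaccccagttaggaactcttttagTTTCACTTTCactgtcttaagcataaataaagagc
Ifi203 (chr1:173942493-173942552, minus strand): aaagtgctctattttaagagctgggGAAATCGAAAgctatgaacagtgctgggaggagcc
Isg15 held 3 overlapping matches and Ifit1 2, and these genes differed by 1.73 and 1.91. Ifi203, with 1 match, differed by -3.36 at the probe used, with its other probes at 0.00 and 1.28. A match says only that these letters are in the window.

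The clock genes were displaced in both directions. Of 17 genes 10 were higher, 3 lower and 4 did not pass (median 0.72), 76.5% passing against 33.0% over all genes. Dbp, a clock output factor, had levels of 11.76, 14.07, 12.43, 12.62 and 10.84 in B6 and 15.88, 15.53, 15.86, 15.84 and 16.21 in D2 livers (log2 difference 3.52, SE 0.37, adjusted p = 1.73e-08, 11.5-fold). Per3, a repressor of the clock, had 6.51, 7.87, 6.53, 7.996 and 6.14 in B6 and 10.79, 10.39, 10.74, 10.70 and 10.40 in D2 (log2 difference 3.59, SE 0.43, adjusted p = 2.28e-07). Arntl, the activator that starts the cycle, had 10.80, 9.49, 10.69, 10.56 and 11.22 in B6 and 8.01, 9.29, 7.83, 7.88 and 7.02 in D2 (log2 difference -2.54, SE 0.34, adjusted p = 1.22e-06). In all of these the strains did not overlap, and Arntl was lower where Per3 and Dbp were higher. Nr1d1 (1.98, other probes 0.16 and 0.34), Per2 (1.43, second probe -0.19), Bhlhe40 (1.08), Hlf (1.04), Tef (0.95) and Cry2 (0.72) were higher, and Cry1 (-1.47) and Clock (-0.81) lower. On the other diets Dbp differed by 4.97 and 4.05, Per3 by 4.54 and 3.53 and Arntl by -3.38 and -2.26. Within scan days 2 and 3 the counts were 5 and 4 higher and 1 and 2 lower, with medians of 0.95 and 0.88. No source used here gives the hour at which a mouse was sampled, and its part was not tested.

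Clock activators bind the letters CACGTG, the E-box. In the same promoter windows 5 of 14 clock genes had a match, against 10.8% of tested genes, among them Cry1 and Tef, which differed in opposite directions.
Cry1 (chr10:85185084-85185139, minus strand): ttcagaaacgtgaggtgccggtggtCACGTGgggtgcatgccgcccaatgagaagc
Tef (chr15:81802521-81802576, plus strand): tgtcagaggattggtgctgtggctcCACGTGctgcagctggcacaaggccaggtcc

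**Figure D2:**
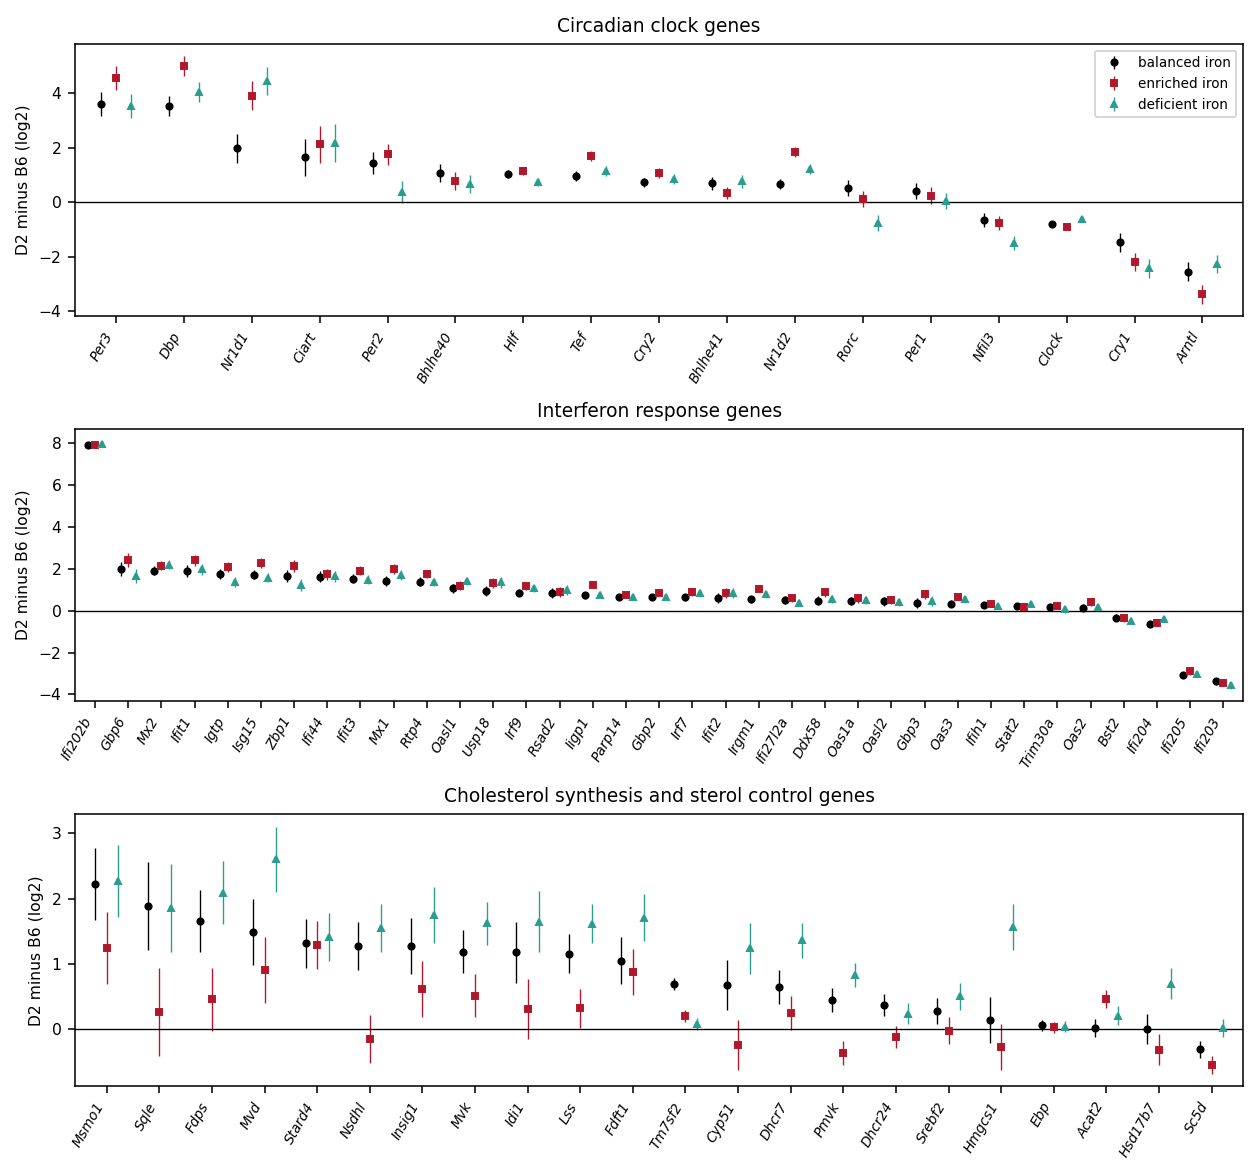
Log2 difference D2 minus B6 (points, with limma's SE as bars) of tested clock, interferon response and cholesterol synthesis genes on balanced, enriched and deficient iron, with 5 mice of each strain on each diet. Most interferon differences lie close together on the 3 diets, and the whole cholesterol list has a median of 0.31 on enriched and 1.02 on balanced iron.

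Cholesterol synthesis genes were higher in D2 livers, with wide spread between mice. Of 25 genes 13 were higher and 0 lower (median 1.02), 52% against 33.0% over all genes. Msmo1, a sterol oxidase, had levels of 13.44, 12.26, 12.16, 15.49 and 12.26 in B6 and 15.28, 15.18, 15.29, 15.96 and 15.03 in D2 livers (log2 difference 2.23, SE 0.55, adjusted p = 0.00237). B6 mouse 4 reached the D2 range, so the groups overlapped. Squalene epoxidase Sqle (1.89, adjusted p = 0.0316), Fdps (1.66), Mvd (1.49) and the sterol carrier Stard4 (1.32) were among them. Leaving out 1 mouse left 9 (without B6 mouse 5 or D2 mouse 4) to 17 (without B6 mouse 4). Within scan day 2 2 passed and within day 3 0, with medians of 0.92 and 0.49, and Stard4 turned to -0.28 on day 3. On enriched iron 2 were higher and 1 lower and on deficient iron 19 and 0, and the test of the difference between diets passed for 0 of 25 members in either case.

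Fatty acid synthesis genes went both ways, 6 of 21 higher and 3 lower (median 0.02), 42.9% against 33.0% over all genes. In a fit to the balanced arrays alone 1 was lower. Srebf1, the transcription factor of lipogenesis, had 12.17, 12.97, 12.96, 12.95 and 12.65 in B6 and 15.01, 14.54, 14.61, 14.57 and 14.64 in D2 (log2 difference 1.93, SE 0.26, adjusted p = 1.41e-06), without overlap. The lipid droplet lipase Pnpla3 (1.32, 2 of 5 B6 arrays above background), the desaturase Fads1 (0.85), the pyruvate kinase Pklr (0.55) and Mlxipl, the carbohydrate response factor (0.50), were higher, and malic enzyme Me1 lower (-1.002). Of 29 genes of fatty acid oxidation 4 were higher and 4 lower (median -0.03), 27.6% against 33.0% over all genes, and 2 were higher without B6 mouse 4 or with the mean of kept probes. The regulator Ppara was higher (12.97 ± 0.05 in B6 and 14.39 ± 0.09 in D2, SD, n = 5, adjusted p = 4.24e-12), while Pdk4, which restrains glucose oxidation and is a PPAR alpha target, was lower (-2.01), as were Slc25a20 (-0.51) and Angptl4 (-0.49, 0.09 within scan day 3). Fgf21 (1.18, second probe 0.76) and Vnn1 (0.72) were higher.

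Of 13 genes of glucose output and glycogen 5 were lower and 2 higher (median -0.14), 53.85% against 33.0% over all genes. The glucose transporter Slc2a2 was among the higher ones. Igfbp1, a secreted binder of insulin-like growth factors, had levels of 17.76, 16.89, 16.89, 17.10 and 16.90 in B6 and 16.29, 16.04, 14.43, 15.85 and 15.24 in D2 (log2 difference -1.54, SE 0.27, adjusted p = 6.16e-05). The coactivator Ppargc1a (-1.60), glucose-6-phosphatase G6pc (-1.12), tyrosine aminotransferase Tat (-1.05) and serine dehydratase Sds (-0.88, 0.08 within scan day 1) were lower as well. B6 mouse 1 held the highest level of Igfbp1 and of G6pc. Only 1 gene was higher without any one of B6 mice 1, 3, 4 and 5 and D2 mice 1, 3 and 4, and with normexp background correction, the mean of kept probes, balanced arrays alone or slide as a block. Of 18 apolipoprotein genes 4 were higher and 4 lower, 44.4% against 33.0% over all genes, and none of them differed 2-fold. Apoa4 (-0.9979) and Pltp (-0.74) were the furthest from 0. The higher count was 2 without B6 mouse 4, D2 mouse 1 or D2 mouse 2 and with cyclic loess or normexp, 1 without normalization between arrays and 0 in a fit to the balanced arrays alone.

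Among enzymes of drug metabolism, of 31 cytochrome P450 genes and regulators 8 were higher and 4 lower (median 0.05), 38.7% against 33.0% over all genes, and 2 were lower without B6 mouse 5 or without normalization between arrays. Cyp3a13 had levels of 15.61, 15.42, 15.42, 15.76 and 15.48 in B6 and 13.22, 12.82, 12.55, 13.05 and 12.83 in D2 (log2 difference -2.64, SE 0.12, adjusted p = 9.72e-16). The strains were separated by over 2 log2 units, and the difference was -3.12 and -2.84 on the other diets. Cyp2g1 (2.50), Cyp2c38 (2.10, second probe -0.09), Cyp1a2, which metabolises caffeine (1.65, second probe 1.68), and Cyp2c70 (1.48) were higher, and the vitamin D hydroxylase Cyp2r1 lower (-1.32). Of 36 conjugation enzymes 11 were higher and 4 lower (median 0.05), 41.7% against 33.0% over all genes. Tpmt, which methylates thiopurine drugs, had 12.04, 11.57, 11.55, 12.24 and 11.69 in B6 and 14.59, 14.60, 14.44, 14.56 and 14.32 in D2 (log2 difference 2.69, SE 0.11, adjusted p = 3.25e-17, 6.43-fold), again without overlap. The sulfotransferase Sult1c2 (2.19) and the glutathione transferase Mgst3 (2.18, other probes 1.84 and 1.88) were higher and Sult1d1 lower (-1.11). Of 12 carboxylesterases Ces1e (0.87), Ces1g (0.61) and Ces1f (0.55) were higher and Ces1c lower (-0.23), 33.3% against 33.0% over all genes. Without B6 mouse 2 the count of lower ones was 2. These families hold near-identical copies, so single members are uncertain.

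Of 28 bile acid genes 9 were higher and 7 lower (median 0.09), against 33.0% of all genes passing. Cyp39a1, an oxysterol hydroxylase, had levels of 13.61, 13.20, 13.39, 13.24 and 13.67 in B6 and 11.31, 11.17, 10.71, 11.30 and 10.12 in D2 (log2 difference -2.50, SE 0.30, adjusted p = 2.23e-07; second probe -2.53). The uptake transporter Slco1a4 (-2.07) and the exporters Abcc4 (-1.13, second probe -1.26) and Abcc2 (-0.82) were lower. Cyp7a1, the rate-limiting enzyme of bile acid synthesis, was higher (1.08, adjusted p = 0.000864, second probe 0.67). The sterol exporter subunit Abcg8 was higher as well (1.37, second probe 0.83), while Abcg5, the other subunit, was among the lower genes.

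Among secreted proteins, of 19 serpins 10 were higher and 1 lower (median 0.35), 57.9% against 33.0% over all genes. With cyclic loess, normexp, no filter or a block 2 or 3 were lower. The rises were led by Serpina11 (2.36), Serpina7, the thyroxine-binding globulin (2.15), and Serpina6, the corticosteroid-binding globulin (1.98). Serpina7 and Serpina6 differed by -0.18 and 0.96 on enriched and 0.27 and 0.50 on deficient iron. Of 16 acute phase genes 6 were higher and 0 lower (median 0.33), 37.5% against 33.0% over all genes. Apcs, serum amyloid P, is a known B6 and D2 difference, with 9.53, 9.78, 9.87, 9.64 and 9.91 in B6 and 12.72, 12.71, 12.47, 13.14 and 12.21 in D2 (log2 difference 2.90, SE 0.18, adjusted p = 7.03e-13). Fibrinogen Fga (1.62), Orm3 (0.99), Saa4 (0.87), Saa3 (0.77) and Crp (0.69) were higher. Of 24 complement genes 5 were higher and 5 lower (median 0.06), 41.7% against 33.0% over all genes. Under 75th percentile scaling 8 were higher and with slide as a block 3. Apart from Hc, the lower ones were properdin Cfp (-0.81) and C1qa, C1qb and C1qc (-0.37, -0.61 and -0.95), which Kupffer cells make and which are among their markers here. Masp1 (0.70) and C4b (0.62) were higher. None of the 4 tested major urinary protein genes passed in limma, and Mup1 differed by 0.07 (adjusted p = 0.359). On enriched iron 3 of them were higher and on deficient iron 2.

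Sex-biased genes were tested because the labels used here give no sex. Probes of the Y-linked Eif2s3y, Kdm5d and Ddx3y were well above background on all 10 balanced arrays, as given above. Of 17 male-biased genes 6 were higher in D2 and 0 lower (median 0.41). The 6 are 35.3% of the list, against 33.0% of all genes passing and 18.7% higher. Cyp2u1 (1.16), Nudt7 (1.16) and Selenbp2 (1.10) came first among them. Of 16 female-biased genes 2 were higher and 4 lower (median -0.29), 37.5% against 33.0% over all genes. Cyp17a1 (-1.33), Nipal1 (-1.29), Cyp3a16 (-1.14) and Cyp3a44 (-0.75, second probe 1.08, mean over probes 0.17) were lower. On enriched iron 15 male-biased genes were higher in D2 and 12 female-biased genes lower, with Hsd3b5, a male-specific steroid enzyme, at 1.21 on balanced and 8.15 on enriched iron, and the strain difference of 9 male-biased and 2 female-biased genes differed between the balanced and the enriched diet.

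Stress genes were read from several lists. Of 23 genes of a list of Nfe2l2 (NRF2 itself), Keap1 and NRF2 targets, 0 were higher and 7 lower (median -0.17). The 7 are 30.4% of the list, against 33.0% of all genes passing and 14.2% lower. Among them were Gclm, a subunit of the enzyme that starts glutathione synthesis (-0.74), and Ugdh (-0.57). Abcc4, Me1, Abcc2 and Hmox1 also count here. Of 18 genes of the unfolded protein response 3 (16.7%) were higher at the probe used, against 33.0% of all genes passing. With the mean of kept probes 2 were higher and 2 lower. The disulfide isomerases Pdia6 (0.66) and Pdia4 (0.66) were higher. The probe used for the chaperone Hyou1 gave 0.94, its second probe -2.59 and the mean over probes -0.82, so no direction is given for it. Of 7 genes of metallothioneins and zinc transport 2 were higher, 1 lower and 4 did not pass (median -0.29), 42.9% against 33.0% over all genes. The lower count was 2 without B6 mouse 4, D2 mouse 2 or D2 mouse 5, with scan day as a block or with the mean of kept probes. Metallothioneins Mt1 (1.76) and Mt2 (1.76), which bind zinc, were higher and the zinc importer Slc39a4 lower (-0.51). Of 21 cell cycle genes 6 were higher and 3 lower (median 0.04), 42.9% against 33.0% over all genes. Rrm2 (-1.55) and Mcm6 (-1.26) were lower and Ccne2 (1.18) and Mcm3 (1.10, second probe 0.35) higher.

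**Figure D3:**
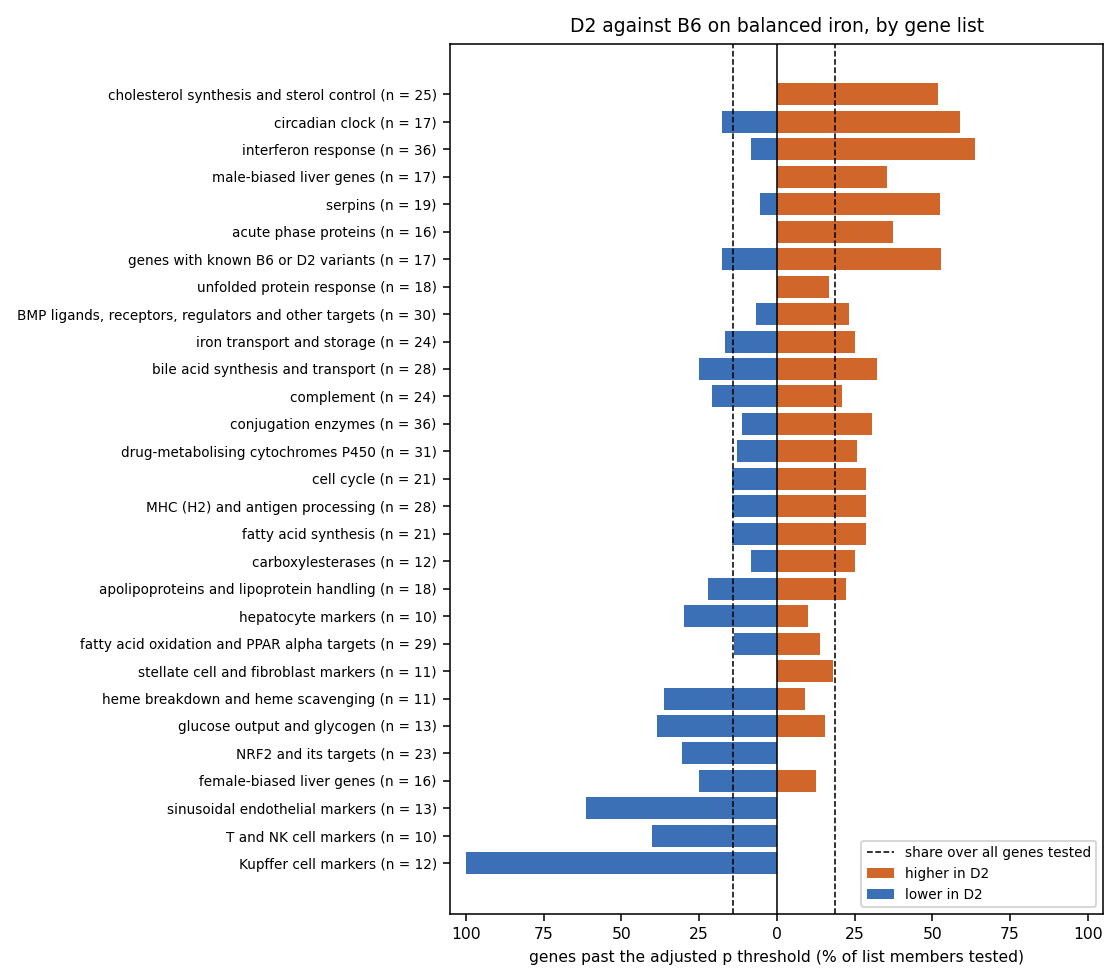
Share of the tested members of each list with 10 or more members that passed at an adjusted p under 0.05 with D2 higher (right) or lower (left) on balanced iron. Dashed lines mark the shares over all genes tested, 18.7% and 14.2%, and lists are ordered by their median difference, from Kupffer cell markers at -0.59 to cholesterol synthesis genes at 1.02.

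Markers of Kupffer cells and sinusoidal endothelium were lower in D2 livers. Of 12 Kupffer cell markers 12 were lower (median -0.59), including the scavenger receptor Marco (-1.21), Adgre1 (-1.03), Cd5l (-0.96), Clec4f (-0.84) and Timd4 (-0.56). Their summed signal was 122154, 72877, 75196, 58078 and 69900 in B6 mice 1 to 5 and 44389, 43583, 43066, 37903 and 45582 in D2 mice. Every B6 mouse lay above every D2 mouse. Without B6 mouse 1 10 of 12 still passed, and in a fit to the balanced arrays alone 9. Within scan day 2, where that mouse is the only B6 array, 12 were lower (median -1.25), and within day 3 4 (median -0.39). Of 13 sinusoidal endothelial markers 8 were lower and 0 higher (median -0.30), among them the hyaluronan receptor Lyve1 (-1.76, second probe -1.93), Cdh5 (-0.41) and Stab1 (-0.30, second probe 0.09). Their summed signal was 40951 to 50406 in B6 and 36616 to 39667 in D2 mice, without overlap. Without B6 mouse 1 4 of them passed, with 75th percentile scaling 5, without normalization between arrays 3, and within scan days 2 and 3 2 and 1. Bmp6, which these cells make, was lower as well, and the part of these markers in its difference was not tested. Of 10 T and NK cell markers 4 were lower (40%, against 33.0% of all genes passing and 14.2% lower), first the granzyme Gzmb (-2.92, 1 of 5 D2 arrays above background). The summed signals of these markers were 1778 to 3977 in B6 and 1315 to 5230 in D2 mice.

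Hepatocyte markers differed little as a group. Of 10, Ttr was higher (0.45) and Tdo2 (-0.68), Ass1 (-0.64) and Cps1 (-0.35) lower (median -0.02), 40% against 33.0% over all genes. Ttr did not pass without B6 mouse 1 or 4 or D2 mouse 3 or 5. The summed signal was 2050240 to 2143317 in B6 and 1917234 to 2022052 in D2 mice, so D2 livers lay slightly and without overlap below B6 livers. Of 11 stellate cell and fibroblast markers 2 were higher (18.2%) and of 5 cholangiocyte markers 1 was lower (20%), against 33.0% of all genes passing. The cholangiocyte counts were 1 higher and 1 lower without B6 mouse 3 or without D2 mouse 3, and 2 lower with scan day as a block. None of 5 B cell (1 higher without D2 mouse 5), 5 neutrophil, 3 adipocyte and 3 exocrine pancreas markers passed, and of 4 erythroid markers Klf1 (1.79) and Alas2 (0.79) were higher.

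**Figure D4:**
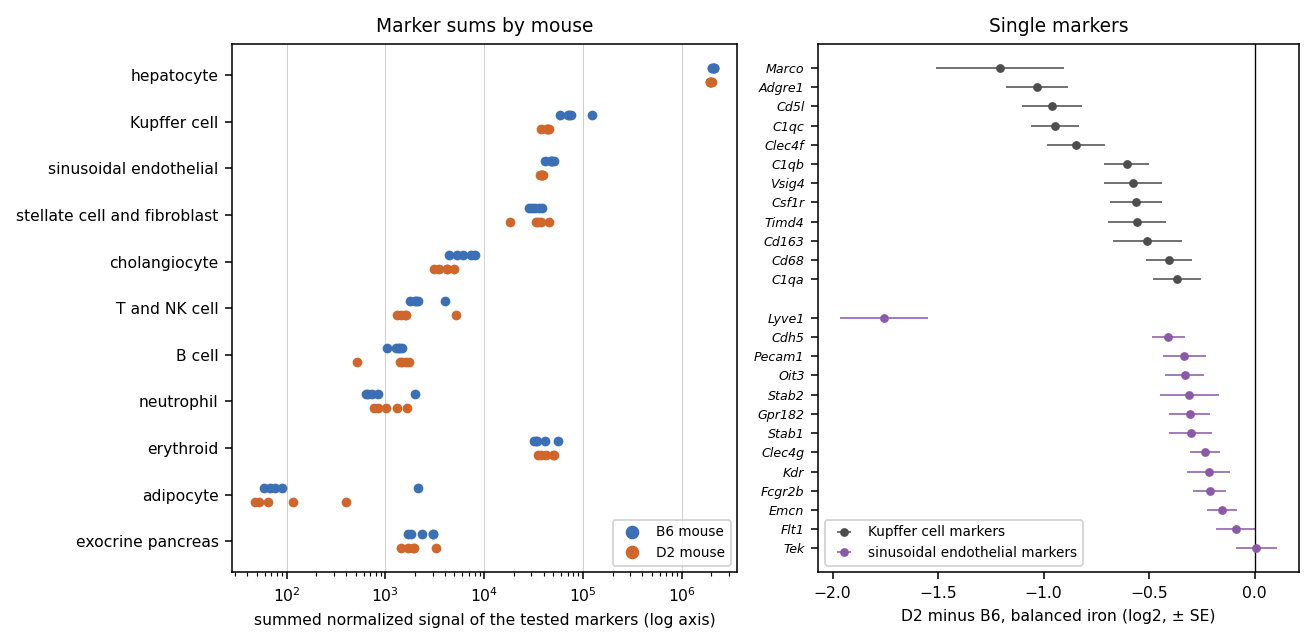
Left: summed normalized signal of the tested markers of each cell type in each balanced mouse, on a log axis. Right: log2 difference D2 minus B6 with limma's SE of each Kupffer cell and sinusoidal endothelial marker; all 12 Kupffer cell markers lie below 0, and B6 mouse 1 has the highest adipocyte sum, 2128.

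Most strain differences were found again in the mice on other diets, which share no animal with the balanced groups. The tests on the 3 diets do share each gene's estimate of spread and its probe, which was kept by its signal on the balanced arrays. A gene with a small shared spread can pass more readily on every diet. The counts of genes passing again are thus not fully independent repeats. On enriched iron 7286 genes (38.4%) differed between the strains and on deficient iron 5935 (31.3%). Of the 6258 genes of balanced livers 4645 (74.2%) passed with the same sign on enriched iron and 4308 (68.8%) on deficient iron, which are 63.8% and 72.6% of the genes passing there. With the opposite sign 26 and 4 passed. On all 3 diets 3798 genes (60.7%) passed with one sign. Of the 1292 genes of at least 2-fold, 1145 (88.6%) and 1144 (88.5%) passed again with the same sign. Ntrk2 differed by 7.10 and 6.42. On enriched and deficient iron the mean level of Ifi202b was 11.71 and 11.76 in D2, that of Thumpd1 11.65 and 11.52 in B6 and that of Trim12a 10.10 and 10.28 in B6. The other strain lay at the floor of 3.80 in each case (3.82 for Thumpd1 on deficient iron), so no size is given for these differences. The split depends on scaling on these diets: without normalization between arrays 1697 of 8149 genes were higher in D2 on enriched iron and 1589 of 5082 on deficient iron, with the median of all genes moved to -0.29 and -0.14.

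**Figure D5:**
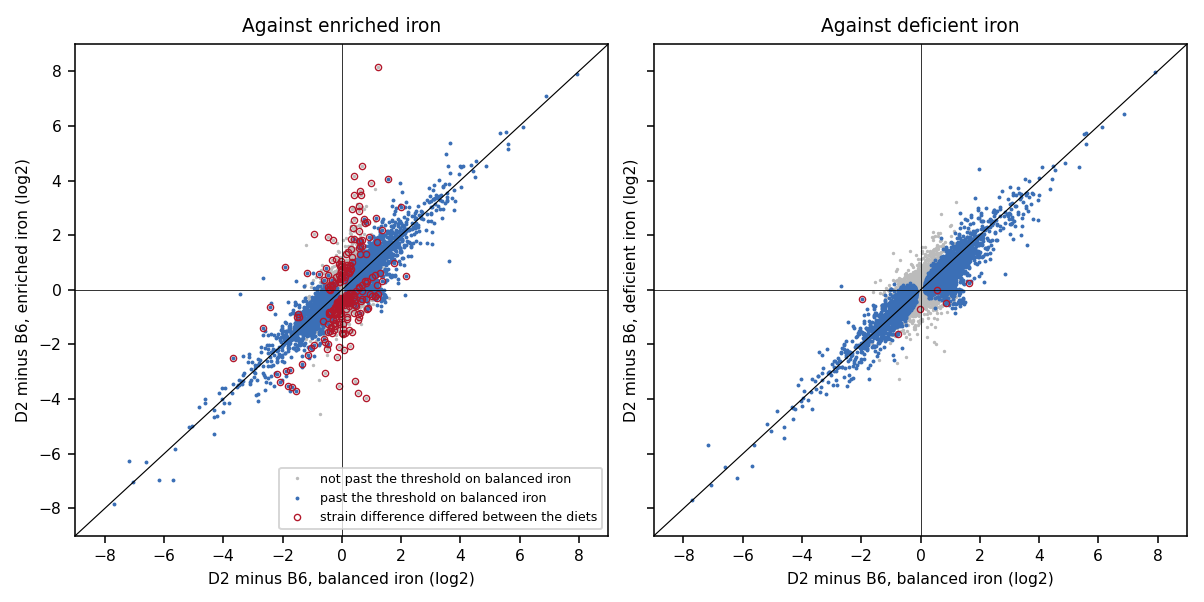
Log2 difference D2 minus B6 of each of 18987 genes on balanced iron (x axis) against enriched (left) and deficient iron (right), with the line of equal differences. Open circles mark the 251 and 6 genes whose strain difference differed between the diets, and most other points follow the line.

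The test of whether the strain difference itself changed with diet passed for few genes, and these tests share the balanced mice. With 5 mice a group, a gene that did not pass is not shown to be unchanged. Between balanced and enriched iron the strain difference differed for 251 genes (1.32%, with 2362 at an unadjusted p under 0.05 in limma). Of these 251, 155 had the more positive value at balanced iron, and 119 had passed on balanced iron. Between balanced and deficient iron it differed for 6 genes (0.0316%, with 1440 at an unadjusted p under 0.05). Without D2 mouse 1 or 4 the first count was 155 or 163. The second was 0 with slide as a block and 3 without any one of B6 mice 3, 4 and 5 and D2 mice 2 and 3. Both title genes that differed between diets did so against enriched iron. Smad7 differed by 0.03 on balanced and -1.62 on enriched iron (difference 1.66, adjusted p = 0.00494) and Bmp6 by -0.45 and -1.27 (adjusted p = 0.000537). The firmest other named genes were Id4, an inhibitor of differentiation (0.26 and -2.04, adjusted p = 6.26e-05), Mcm10, a replication factor (0.77 and 2.59), Chpf, a chondroitin synthesis enzyme (0.17 and -1.001), and the steroid reductase Srd5a1 (-0.31 and 1.81; second probe -3.16 on balanced iron). Against deficient iron these were Plscr2 (-0.0038 and -0.70), Enpp6 (-1.96 and -0.35), the transporter Slc16a11 (-0.77 and -1.60), Kazald1 (0.57 and -0.02) and Fmo2 (0.85 and -0.47). The other kept probes of Fmo2 gave -0.03 and 0.56 on balanced iron. Enpp6 was above background on 0 of 5 balanced D2 arrays, so its balanced difference is a bound, at least 2.91-fold lower (means 5.76 and 3.80, adjusted p = 1.37e-09).

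Probes of a gene did not always show the same difference. Of the 6258 genes 2407 had more than 1 kept probe. In 1334 of these another probe passed with the same sign, in 141 another passed with the opposite sign, and in 966 no other probe passed. Among the 327 such genes of at least 2-fold these numbers were 230, 19 and 84. Ranked by the smaller of the opposing differences, the first genes were Ifi203 and H2-Bl above, Zfp945 (1.61, with -5.996 at another probe), Gsap (1.44, with -2.64) and Chmp4c (-2.05, with 1.03 and 1.36). With the mean of all kept probes the sign turned for Zfp945 (-0.51), Gsap (-0.29) and Chmp4c (0.11), as it did for H2-Bl and Hyou1, so a direction is not given for these genes.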

How the data were processed

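Liver RNA of single mice was hybridised to 1-colour Agilent 44K arrays, 1 array per mouse. The deposited files hold, per the file headers, spot intensity after the scanner software's background correction (gProcessedSignal) with above-background and outlier marks. The headers give Feature Extraction 9.1.3.1 where the labels name 9.5.1. Control and outlier spots were left out, spots of a probe averaged, 30 arrays quantile normalized, signals under 13.93 set to that floor, and log2 taken. Probes well above background on at least 5 of the 10 balanced arrays, of either strain, were kept (28030), and the brightest kept probe stood for its gene (18987). Symbols came from RefSeq GRCm38.p6, by accession for 22951 probes, symbol for 6659 and synonym for 3109, and 8455 kept the file's name. Group means of all 6 groups were fitted with limma 3.58.1 in R 4.3.3 (lmFit, eBayes, Benjamini-Hochberg over all genes, 0.05), tested on simulated data. The series text's MAANOVA model was not used here.

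Named genes are the 15 largest rises and falls without overlap, title and hepcidin genes, up to 6 per list that passed, the 5 firmest differences between diets (ties by the moderated statistic, set after values were seen) and genes with disagreeing probes. Some genes this rule names are not reported here. Further list members and neighbours were named after their values were seen. The members and lists were chosen with earlier results of these data known. Alternatives were other scalings, background correction, filters, probe rules, slide or scan day as a block, single scan days and leaving out each mouse. Motifs were searched in RefSeq promoters of GRCm38.p6.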

Additional observations from a re-analysis of the deposited data

Results flagged for a closer look

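In 23 of 350 groups of 5 mice tested among 175 named genes, 1 mouse lay further from the others than the 95% limit of Dixon's test allows, which chance gives in about 1 in 20 groups (1 group is 1 gene in 1 strain). Values are log2 levels. B6 mouse 1 lay above the rest of its group for Igfbp1 (17.76), G6pc (15.87), Apoa4 (15.13) and Apom (15.72) and below the rest of its group for Smad7 (9.002), Serpina11 (12.51) and Serpina6 (12.77). D2 mouse 2 lay above the rest of its group for Nlrp12 (8.202), Ncoa4 (13.83) and Pdk4 (9.074) and below the rest of its group for Per2 (10.03). B6 mouse 4 lay above the rest of its group for Per2 (10.49) and below the rest of its group for Ifi203 (10.04), Gbp6 (6.909) and Slc39a4 (14.68). D2 mouse 3 lay above the rest of its group for Tmc5 (8.796) and Gbp6 (11.02). D2 mouse 4 lay above the rest of its group for Rab6b (4.755) and Msmo1 (15.96). D2 mouse 5 lay above the rest of its group for Rsph6a (6.937) and below the rest of its group for Cyp2c70 (15.05). B6 mouse 5 lay above the rest of its group for Serpina3a (4.053), whose other B6 levels all lay at the floor of 3.80. Any single value above the floor would be flagged there. D2 mouse 1 lay above the rest of its group for Srebf1 (15.01). 

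The strain difference differed between diets in limma's test of the difference for the following named genes, given as D2 minus B6 on balanced iron less the same on the other diet (log2). Against enriched iron it was positive for Bmp6 (0.815), Smad7 (1.657), Bambi (1.067), Cybrd1 (1.031), Mgst3 (1.671), Slco1a4 (1.314), Abcc4 (1.252), Id4 (2.3), Chpf (1.175) and Kazald1 (0.4724). It was negative for Hc (-0.5235), Mup1 (-0.3081), Nudt7 (-1.473), C4a (-0.9342), C8a (-1.443), Serpina1e (-0.6176), C4b (-0.6957), Mcm10 (-1.824), Srd5a1 (-2.12) and Plscr2 (-0.4753). Against deficient iron it was Fmo2 (1.314), Plscr2 (0.6994), Enpp6 (-1.61), Slc16a11 (0.8366) and Kazald1 (0.5899).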

How the results depend on the processing

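Of 165 named genes that passed on balanced iron, 151 to 164 kept sign and call under other scalings, background correction, filters, probe rules, blocks, a fit to the balanced arrays alone, unmoderated variances and left-out mice, 102 within scan day 2 and 0 within day 1, where each strain has 1 array. Within day 3 63 of 163 lost their call and 2 turned sign. The count on balanced iron was 0 within day 1 and 2548 within day 2, on enriched iron 1333 within day 2, and on deficient iron 3302 within day 2 and 2345 within day 3. Genes whose strain difference differed between balanced and enriched iron numbered 993 without normalization, 390 with scan day as a block, 0 within day 2 and 155 to 312 with 1 mouse left out. Against deficient iron they numbered 0 with slide as a block, 10 with scan day as a block, 1 within day 2, 220 within day 3 and 3 to 9 with 1 mouse left out. Signs turned for Thumpd1 (0.2331 under both filters that ask for signal in both strains, which use its other probe), for H2-Bl (0.2759), Cyp3a44 (0.1662), Hyou1 (-0.821), Zfp945 (-0.5074), Gsap (-0.2921) and Chmp4c (0.11) with the mean of kept probes, for Stard4 (-0.2826) and Angptl4 (0.09048) within day 3, and for Sds (0.07769) and Lipc (-0.07531) within day 1. Where nothing is named, the cause was not tested. No paired analysis was possible because replicate numbers follow accession order and name no shared animal. Signals under the floor have no order, and 5 mice a group limit the precision.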
